A study of Homo sapiens with 48 samples.

Results

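The circadian clock genes were followed as a group of 10: the repressors PER1, PER2, PER3, CRY1 and CRY2, the basic helix-loop-helix repressors BHLHE40 and BHLHE41, the nuclear receptor NR1D2, the D-box repressor NFIL3 and the CLOCK-BMAL1 repressor CIART. Members were chosen by name, each measured by the probe set, among those annotated with that symbol alone, that had the highest mean over the 48 arrays. Such a probe set existed for 9 of the 10 genes (18 probe sets in all), against 19775 genes on the whole array. PER1 has no value, because its 4 probe sets are annotated with MIR6883 as well. Of the 9, 8 passed the filter on dim genes, as did 11865 genes in all, and BHLHE41 did not.

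The cells were BEAS-2B, an immortalised line of human bronchial epithelium, and total RNA was measured on Affymetrix U133 Plus 2.0 arrays. Cells received vehicle, a combination of indacaterol and GSK256066 (Ind/GSK, each at 10 nM) or GS-5759 (10 nM), and were taken at 1, 2, 6 or 18 h, which made 12 groups of 4 arrays. Indacaterol is a long-acting agonist of the β2-adrenoceptor and GSK256066 an inhibitor of the phosphodiesterase PDE4, and GS-5759 joins both activities in 1 molecule. All groups were grown in the same serum-free medium with growth supplements and kept without these for a further day, and the labels give no clock time at which cells were taken. The labels number the replicates 1 to 4 but do not say whether these were separate cultures, so p-values measure the spread between these arrays. In a bulk measurement, fewer cells with a transcript and less transcript per cell cannot be told apart.

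In the core loop of the clock, CLOCK and BMAL1 bind E-boxes and switch on PER, CRY, NR1D and BHLHE genes, whose proteins then repress that activation. NFIL3 represses genes with D-boxes and opposes DBP and its relatives there, and NR1D proteins repress BMAL1 itself. Agonists of the β2-adrenoceptor raise cyclic AMP, PDE4 inhibitors slow its breakdown, and cyclic AMP activates CREB, a factor that binds CRE sequences and is a known input to the clock in many tissues.

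The array medians lay between 6.999 and 7.173 on the log2 scale and the correlations between arrays between 0.968 and 0.997. Of 9 airway epithelial markers, 5 lay above the filter (KRT5, KRT7, KRT8, KRT18 and CDH1), KRT19 and EPCAM lay below it, and the other two had no probe set of their own. Of the leukocyte markers described here LYZ was above the filter and PTPRC, CD3E and CD14 below it, and of 4 endothelial markers PECAM1 was above and VWF, CDH5 and KDR below. Of 7 fibroblast and muscle markers COL1A1, PDGFRB, MYH11 and DES were above and COL3A1, LUM and DCN below, at group sums of 11226 to 12998 for the list against 21587 to 29202 for the epithelial list. Deviations from the group mean were most alike among the 12 arrays of replicate 3 (mean correlation 0.901, against 0.576 to 0.771 for the other numbers), so array values are given in the order of replicates 1 to 4.

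Promoter sequences are printed for the 4 members that passed the test in at least 1 comparison. Of these, BHLHE40, NR1D2 and CIART rose in vehicle cells, BHLHE40 and NFIL3 rose under both drug treatments, and CIART fell with Ind/GSK. Each run is the 250 bases before a RefSeq transcription start, 5′ to 3′ on the strand of the gene, in GRCh38.p14. All 10 members were found in RefSeq, with 14 windows. Capitals mark the E-box CACGTG, the short CRE core TGACG and the D-box TTATGTAA, on either strand, and in the printed windows no marked motif overlapped another. The windows are chr3:4979187-4979436 (plus strand) for BHLHE40, chr3:23945871-23946120 (plus strand, the later of 2 starts) for NR1D2, chr1:150282304-150282553 (plus strand) for CIART and chr9:91424627-91424876 (minus strand, the earlier of 2 starts) for NFIL3.
BHLHE40: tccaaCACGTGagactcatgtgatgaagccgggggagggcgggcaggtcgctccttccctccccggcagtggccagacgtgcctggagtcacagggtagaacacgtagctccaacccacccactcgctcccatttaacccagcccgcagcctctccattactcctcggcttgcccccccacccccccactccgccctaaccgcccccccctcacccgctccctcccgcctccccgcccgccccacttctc
NR1D2: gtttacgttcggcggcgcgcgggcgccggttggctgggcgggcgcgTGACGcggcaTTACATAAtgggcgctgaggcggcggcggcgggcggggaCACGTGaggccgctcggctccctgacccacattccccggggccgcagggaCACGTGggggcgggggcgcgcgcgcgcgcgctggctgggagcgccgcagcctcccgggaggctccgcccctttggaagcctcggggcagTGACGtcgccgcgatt
CIART: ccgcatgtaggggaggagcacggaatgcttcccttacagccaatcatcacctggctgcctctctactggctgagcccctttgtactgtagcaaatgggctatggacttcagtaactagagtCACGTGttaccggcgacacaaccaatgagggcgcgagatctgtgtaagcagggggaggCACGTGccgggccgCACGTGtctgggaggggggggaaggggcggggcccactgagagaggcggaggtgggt
NFIL3: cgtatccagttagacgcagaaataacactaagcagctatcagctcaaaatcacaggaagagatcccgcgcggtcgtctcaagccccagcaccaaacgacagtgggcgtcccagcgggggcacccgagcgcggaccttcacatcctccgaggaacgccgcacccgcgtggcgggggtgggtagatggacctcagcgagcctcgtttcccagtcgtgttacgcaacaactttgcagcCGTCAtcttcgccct

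The CIART window held 3 E-boxes, whose first bases lay 129, 71 and 57 bases before the start. The NR1D2 window held 2 E-boxes, at 155 and 105 bases, with a D-box on the other strand at 194 and short CRE cores at 204 and 16. The window of the earlier NR1D2 start held none of these motifs. The BHLHE40 window held 1 E-box, at 245 bases. Neither the BHLHE40 nor the CIART window held a short CRE core. E-boxes stood in 5 of the 14 member windows, from 5 of the 10 members, and in 6.345% of all 35116 windows of this length. BHLHE41 and PER1 were the ones among these members whose windows are not printed. The NFIL3 window held a short CRE core on the strand opposite to the gene at 15 bases. The window of the later NFIL3 start held none of the marked motifs. Short CRE cores stood in at least 1 window of 5 members, with CRY2 holding them in both of its windows, and in 21.22% of all windows. That share counts windows, not genes. The full CRE TGACGTCA was in none of the 14 windows and in 1.646% of all. These are matches of letters, not measured binding.

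BHLHE40, also called DEC1, is a transcriptional repressor that competes at E-boxes, and it rose under both treatments at 1 and 2 h. Signal rose 2.68-fold with Ind/GSK and 3.06-fold with GS-5759 at 1 h, was still 1.94-fold and 2.22-fold above vehicle at 2 h, and was within 0.03 of vehicle on the log2 scale by 6 h. In vehicle cells at 1 h the 4 arrays read 1267, 837, 2016 and 1178 (replicates 1 to 4). With Ind/GSK they read 3678, 2438, 5616 and 2677. With GS-5759 they read 4389.5, 2946, 6475 and 2717. Every treated array lay above every vehicle array, and replicate 3 was the highest in all 3 groups. The log2 difference was 1.42 ± 0.27 (SE, n = 4 against 4, adjusted p = 0.00197) for Ind/GSK and 1.61 ± 0.27 (adjusted p = 0.000329) for GS-5759. At 1 h, 2.47% of all genes tested changed with Ind/GSK (0.480% rose) and 0.320% with GS-5759 (0.312% rose), and BHLHE40 was the 1 of 8 members that rose in each. Comparisons of both treatments at a given time share the same 4 vehicle arrays.

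At 2 h the vehicle arrays for BHLHE40 read 1095, 1158, 1237 and 1158. The Ind/GSK arrays read 2383, 1928, 3063 and 1861, and the GS-5759 arrays 2874, 2067, 3797 and 2019. The groups again did not overlap. The differences were 0.95 ± 0.27 (adjusted p = 0.0284) and 1.15 ± 0.27 (adjusted p = 0.00716). At 6 h they were -0.03 (95% interval -0.57 to 0.51) and 0.03 (-0.51 to 0.57), and at 18 h 0.00 and 0.02, with overlapping arrays in each case. Signal at 6 h ranged from 710.0 to 1736 with Ind/GSK and from 818 to 1575 with GS-5759, around vehicle arrays of 839 to 1350.3. The other probe set of BHLHE40, which is dimmer, gave differences of 1.46 and 1.66 at 1 h and of 1.00 and 1.18 at 2 h, and in the fit that used it the Ind/GSK call at 2 h was lost (adjusted p = 0.0554). The 1 h calls held in 8 of 8 fits that left out 1 array each, but not in fits of the compared groups alone (adjusted p = 0.340 and 0.298). The Ind/GSK call at 2 h was lost in 6 of 8 such fits (without any 1 vehicle array or Ind/GSK replicate 1 or 3, with log2 differences of 0.81 to 1.05 over the 8), and the GS-5759 call at 2 h was lost without GS-5759 replicate 3 (adjusted p = 0.0615).

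**Figure D1:**
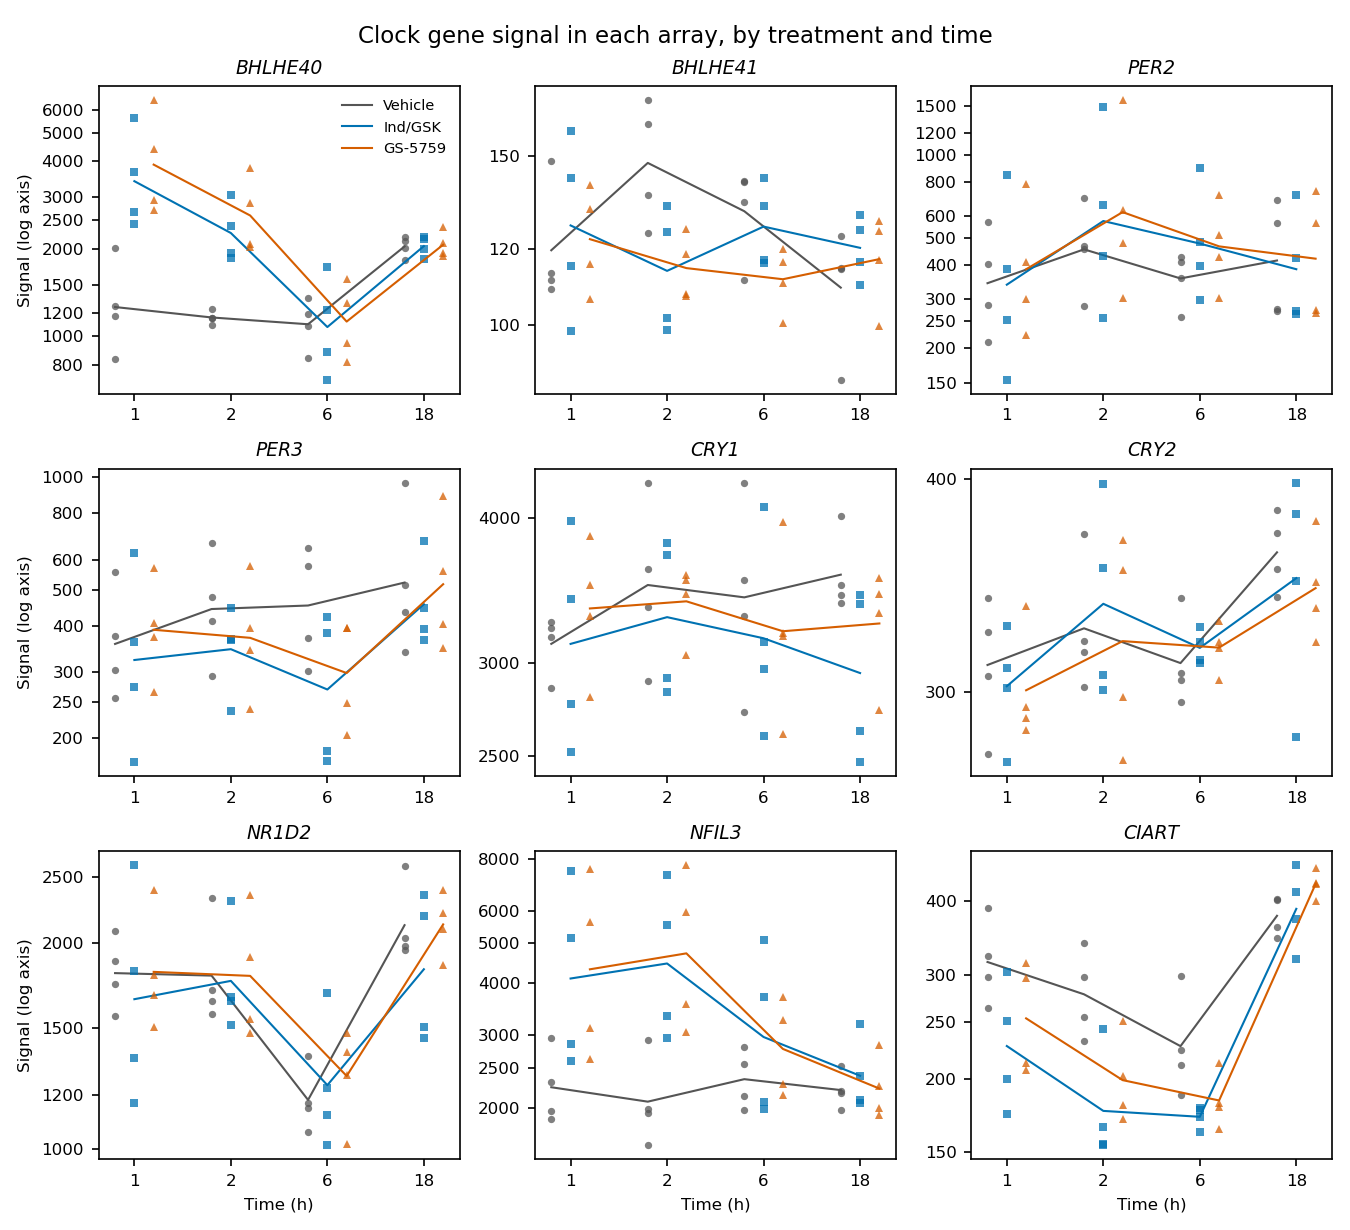
Signal of the 9 measured clock genes in each of 48 arrays, on log axes of different range, against time (h, evenly spaced); points are arrays, lines join group means taken on the log2 scale, and colours mark vehicle, Ind/GSK and GS-5759. BHLHE40 stands above vehicle at 1 and 2 h, NFIL3 at 2 h, and CIART below it at 2 h. In all 3 treatments BHLHE40, NR1D2 and CIART have their lowest means at 6 h and rise by 18 h. With Ind/GSK the CIART mean is already near its 6 h level at 2 h (7.59 against 7.56 log2).

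NFIL3, also called E4BP4, represses D-box genes, and it rose under both treatments at 2 h, 2.15-fold with Ind/GSK and 2.27-fold with GS-5759. The vehicle arrays at 2 h read 1946, 1991, 2921 and 1626. The Ind/GSK arrays read 5541, 3337, 7318 and 2951, and the GS-5759 arrays 5946, 3575, 7719 and 3049. Every treated array was above every vehicle array, although the lowest treated array (2951) only just cleared the vehicle array of replicate 3 (2921). The log2 differences were 1.10 ± 0.33 (adjusted p = 0.0443) and 1.19 ± 0.33 (adjusted p = 0.0362). At 2 h, 4.51% of all genes changed with Ind/GSK (1.69% rose) and 3.05% with GS-5759 (1.97% rose), and BHLHE40 and NFIL3 were the 2 of 8 members that rose in each. The median difference of the 8 members at 2 h was 0.01 with Ind/GSK and -0.01 with GS-5759, against -0.05 and 0.00 over all genes tested.

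At 1 h NFIL3 already read 5141, 2857, 7479 and 2601 with Ind/GSK and 5648, 3121, 7552 and 2633 with GS-5759, against 2316, 1969, 2958 and 1882 in vehicle. All 8 same-numbered differences were positive, from 0.46 to 1.35, yet the groups overlapped. Vehicle replicate 3 lay above replicate 4 of both treatments and above Ind/GSK replicate 2. The differences of 0.87 ± 0.33 (adjusted p = 0.139) and 0.94 ± 0.33 (adjusted p = 0.606) did not pass the test. They passed it with replicate number as a block (adjusted p = 0.000215 and 8.81e-05), a fit that called 22.4% and 1.69% of all genes. At 6 h the differences were 0.34 and 0.24, and at 18 h 0.11 and 0.01, none of them called. Each 2 h call was lost in 5 of 8 fits that left out 1 array (without vehicle replicate 1, 2 or 4, or treated replicate 1 or 3, with log2 differences of 0.87 to 1.30 and 0.95 to 1.40). Both were also lost with no filter on dim genes (adjusted p = 0.0709 and 0.0552) and in fits of the compared groups alone (0.189 and 0.159). That with Ind/GSK was lost too with the filter set over all probe sets (0.0529) and in the fit of next brightest probe sets (0.0592).

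CIART, also called CHRONO, is a repressor of CLOCK-BMAL1, and it fell with Ind/GSK at 2 h. With Ind/GSK at 2 h its 4 arrays read 154, 155, 166 and 243, against 231, 255, 298 and 340.1 in vehicle. The groups overlapped by 1 array, treated replicate 4. The difference was -0.61 ± 0.15 (0.654 of the vehicle level, adjusted p = 0.0132), where 2.82% of all genes fell. With GS-5759 the arrays read 180.3, 202, 171 and 250.5, and the difference of -0.45 ± 0.15 did not pass the test (adjusted p = 0.116). It passed with replicate number as a block (adjusted p = 0.00375, in a fit that called 11.1% of all genes) and, at the edge, with arrays centred on the 75th percentile (adjusted p = 0.04998). The difference between the 2 treatments in CIART at 2 h, 0.16 (95% interval -0.15 to 0.47), did not pass the test.

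CIART was below vehicle in every same-numbered pair at 1, 2 and 6 h in both treatments, 24 of 24, and above it in 7 of 8 at 18 h. At 1 h the differences were -0.45 (adjusted p = 0.0994) and -0.30 (adjusted p = 1.00), and at 6 h -0.37 (adjusted p = 0.185) and -0.28 (adjusted p = 0.450). The Ind/GSK arrays at 6 h, 177, 178, 162 and 172, all lay below the vehicle arrays of 188, 211, 224 and 298. With the replicate block, the Ind/GSK differences at 1 and 6 h passed the test (adjusted p = 0.00498 and 0.0121) and those of GS-5759 did not. For Ind/GSK that fit called 22.4% of all genes at 1 h and 22.0% at 6 h. The median over all genes with Ind/GSK at 1 h was -0.11, and 0.01 with arrays centred on the 75th percentile. At 18 h the CIART differences were 0.04 and 0.17. The Ind/GSK call at 2 h was lost without vehicle replicate 4 or Ind/GSK replicate 1 or 2, in the fit of the compared groups alone (adjusted p = 0.179) and without all 12 arrays of replicate 3 (adjusted p = 0.130), and that at 1 h was gained without Ind/GSK replicate 4 (adjusted p = 0.0339).

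**Figure D2:**
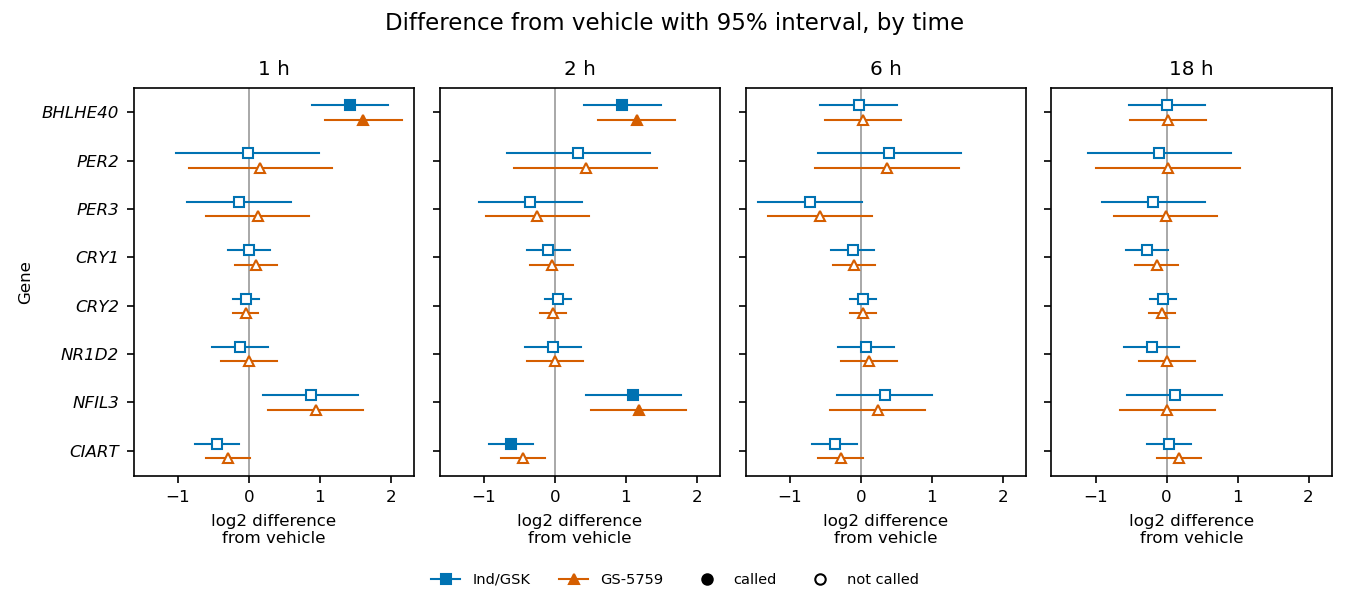
Log2 difference from vehicle of the 8 tested clock genes at 1, 2, 6 and 18 h, with 95% intervals from the fit of 48 arrays; filled symbols passed the test after Benjamini-Hochberg adjustment over 11865 genes. BHLHE40 is the filled gene at 1 h in both treatments, BHLHE40 and NFIL3 are filled at 2 h in both with CIART filled for Ind/GSK, and no symbol is filled at 6 or 18 h.

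PER2 and PER3, partners of the CRY proteins in the repressor complex, did not pass the test in any comparison. PER2 at 2 h read 656, 256, 1491 and 430.3 with Ind/GSK and 633, 305, 1578 and 478 with GS-5759, against 458, 284, 700.2 and 468 in vehicle. The differences within replicate number at 2 h were 1.07 and 1.15 in replicate 3, 0.50 and 0.45 in replicate 1, and between -0.14 and 0.10 in replicates 2 and 4. At 6 h all same-numbered PER2 differences were positive, 0.14 to 1.05 with Ind/GSK and 0.21 to 0.72 with GS-5759. PER2 was not called at 6 h with replicate number as a block either (adjusted p = 0.110 and 0.179). PER2 was the member that differed most between replicate numbers: replicate 3 lay 0.86 above and replicate 2 lay 0.72 below the group mean on the log2 scale, in the same direction in 12 of 12 groups. Its differences from vehicle ran from -0.10 to 0.43 with an SE of 0.50. The dimmer probe set of PER2 lay below the filter.

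PER3 at 6 h read 174, 185, 423 and 384 with Ind/GSK and 248, 204, 395 and 395 with GS-5759, against 370.3, 303, 644 and 579 in vehicle. All 8 same-numbered differences were negative, from -1.02 to -0.53, while the groups overlapped, because replicates 3 and 4 read higher than replicates 1 and 2 in each. The differences of -0.71 ± 0.36 (adjusted p = 0.309) and -0.58 ± 0.36 (adjusted p = 0.559) did not pass the test. With replicate number as a block they did (adjusted p = 0.000911 and 0.0107), where that fit called 22.0% and 12.9% of all genes. At 2 h the differences were -0.34 and -0.25, with 8 of 8 same-numbered pairs negative, and at 18 h -0.19 and -0.01.

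**Figure D3:**
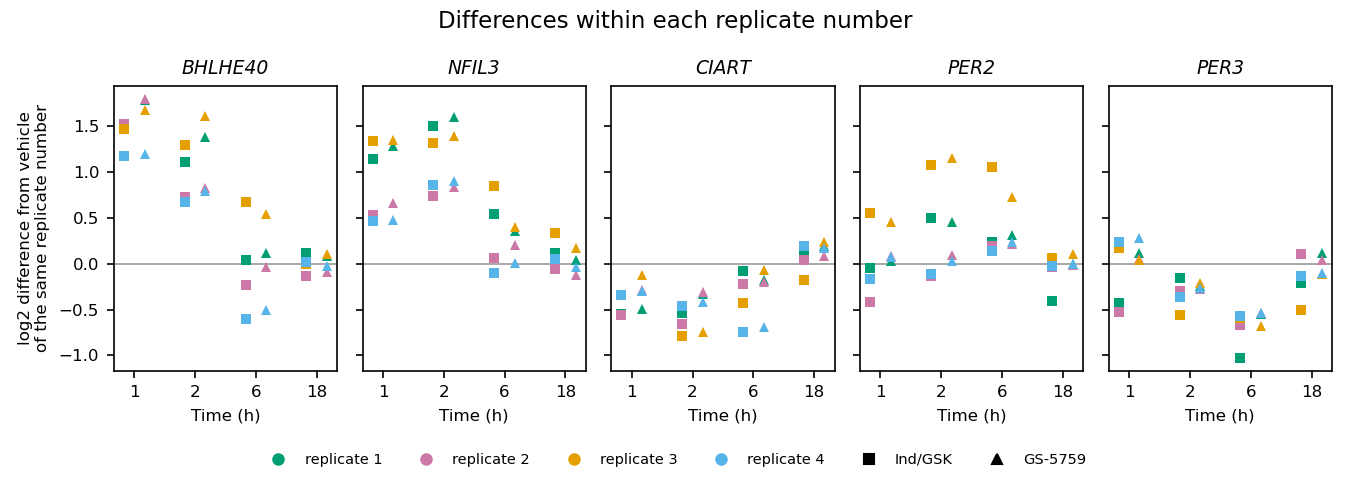
Log2 difference between each treated array and the vehicle array of the same replicate number, against time (h, evenly spaced), for 5 clock genes; colours mark replicates 1 to 4, squares Ind/GSK and triangles GS-5759. BHLHE40 and NFIL3 lie above 0 in every replicate at 1 and 2 h, CIART below 0 from 1 to 6 h and PER3 below 0 at 2 and 6 h, while the PER2 points of replicate 3 stand above the others at 2 h.

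CRY1 and CRY2, the cryptochromes, and NR1D2 (REV-ERBβ), which represses BMAL1, were not called in either treatment at any time. CRY1 differences ran from -0.28 to 0.10 (SE 0.15), with arrays of 2468 to 4284 over the whole series. CRY2 differences ran from -0.07 to 0.05 (SE 0.09), which was the smallest SE among the members. NR1D2 differences ran from -0.21 to 0.12 (SE 0.19). None of these 3 genes passed in the fit with the replicate block either. BHLHE41 (DEC2), the paralogue of BHLHE40, read 87.7 to 171 over the 48 arrays and lay below the filter signal of 154 in its mean (122). In a fit without the filter its differences at 2 h were -0.33 and -0.32 (adjusted p = 0.161 and 0.205). At 6 h, where 5.01% of all genes changed with Ind/GSK and 1.88% with GS-5759, none of the 8 members passed limma's test. At an unadjusted p under 0.05 there were 1 and 0 members, against 16.9% and 13.0% of all genes. At 18 h none passed either, 0 and 0 unadjusted (5.47% and 2.64% of all genes), where 0.0506% and 0% of all genes changed.

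The 2 treatments were compared directly at each time and over all 4 times. No member differed between GS-5759 and Ind/GSK in any of the 5 comparisons by limma's test. Of all genes, 0% were called at each time and 0.0759% over the 4 times. No member had an unadjusted p under 0.05 either, against 5.98%, 1.64%, 3.33% and 0.346% of all genes at 1, 2, 6 and 18 h. Over the 4 times that share was 17.8%. With the replicate block no member was called either, while 19.7% of all genes were called over the 4 times. The member differences ran from -0.01 to 0.26 at 1 h, -0.07 to 0.20 at 2 h, -0.10 to 0.14 at 6 h and -0.10 to 0.22 at 18 h. Averaged over times, they ran from -0.02 to 0.17, and the 95% intervals reached from -0.41 to 0.60 at their widest, for PER2. BHLHE40 was 0.12 higher with GS-5759 over the 4 times, with GS-5759 above Ind/GSK in 8 of 8 same-numbered pairs at 1 and 2 h. NFIL3 and CIART were likewise higher with GS-5759 in every same-numbered pair at 1 and 2 h. The median over all genes tested was 0.09 at 1 h, 0.05 at 2 h and 0.06 over the 4 times. With arrays centred on the 75th percentile these medians were -0.016, -0.005 and -0.009. NFIL3 differed by 0.07 at 1 h and 0.08 at 2 h, and same-numbered pairs were not counted over all genes.

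Whether the response, taken as the mean of both treatments minus vehicle, changed with time was tested between neighbouring times. No member passed by limma's test, where 0.270% of all genes changed from 1 to 2 h, 0.708% from 2 to 6 h and 0.556% from 6 to 18 h. At an unadjusted p under 0.05 there were 0, 2 and 1 members, against 7.40%, 8.59% and 8.97% of all genes. The response of BHLHE40 changed by -1.05 ± 0.33 from 2 to 6 h (adjusted p = 0.163), and that of NFIL3 by -0.86 ± 0.41 (adjusted p = 0.546). With the replicate block, which called 6.66% of all genes from 2 to 6 h and 7.45% from 6 to 18 h, both passed (adjusted p = 0.00108 and 0.00347), as did the change of CIART by 0.43 ± 0.19 from 6 to 18 h (adjusted p = 0.439 without and 0.0375 with the block). Without the 12 arrays of replicate 3, the change of BHLHE40 passed as well (adjusted p = 0.0294).

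In vehicle cells, 3 of 8 members rose between 6 and 18 h: BHLHE40 1.84-fold, NR1D2 1.79-fold and CIART 1.62-fold, where 14.1% of all genes changed and 9.79% rose. The split of those calls, 1161 risen and 517 fallen, became 840 and 918 with centring on the 75th percentile, under which the 3 members stayed called. BHLHE40 read 1195, 839, 1081 and 1350.3 at 6 h and 1829, 2011, 2199 and 2121 at 18 h. NR1D2 read 1165, 1145, 1058 and 1365 at 6 h and 1978, 1953, 2034 and 2591 at 18 h. CIART read 188, 211, 224 and 298 at 6 h and 347, 405, 362 and 402 at 18 h. In each of these 3 called genes every 18 h array lay above every 6 h array. At an unadjusted p under 0.05 by limma's test there were 4 members, against 26.2% of all genes. The log2 differences were 0.88 ± 0.27 (adjusted p = 0.0209), 0.84 ± 0.19 (adjusted p = 0.00240) and 0.70 ± 0.15 (adjusted p = 0.00155). The other probe sets of BHLHE40 and NR1D2 gave 0.83 and 0.88, the first of which was not called in the fit that used it (adjusted p = 0.0620). The calls of NR1D2 and CIART held in 8 of 8 fits that left out 1 array, and that of BHLHE40 was lost without vehicle 6 h replicate 2 or vehicle 18 h replicate 4 (log2 differences of 0.75 to 0.98 over the 8).

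The epithelial keratins KRT8 and KRT18 fell over the same interval in vehicle cells, and the 5 tested epithelial markers had differences of -0.73 to 0.16 with a median of -0.49. Their part in the members' rise was not tested. The members' median difference was 0.21, against 0.03 over all genes tested. CRY2 rose by 0.21 ± 0.09 with 4 of 4 pairs positive, which passed with the replicate block (adjusted p = 0.0222, where 34.3% of all genes were called) and not without (adjusted p = 0.124). PER3 changed by 0.20 in its main probe set (adjusted p = 0.804) and by 0.59 in its next probe set, which passed in the fit that used it (adjusted p = 0.0311). PER2, CRY1 and NFIL3 differed by 0.21, 0.06 and -0.09, none of them called.

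BHLHE40, NR1D2 and CIART had their lowest vehicle means at 6 h, with BHLHE40 close to its 2 h mean (10.12 against 10.20 log2). NR1D2 fell by 0.60 from 2 to 6 h in vehicle, with 4 of 4 pairs negative (adjusted p = 0.212, and 0.00204 with the replicate block), where 0.413% of all genes changed, and 6.78% with the block. CIART stepped down at each time in 4 of 4 pairs, by 0.17 from 1 to 2 h and 0.27 from 2 to 6 h, neither called. From 1 to 18 h no member passed limma's test, where 5.72% of all genes did. At an unadjusted p under 0.05 there were 2 members, against 17.8% of all genes. With the block, which called 23.3% of all genes, BHLHE40 (0.68, adjusted p = 0.00298), PER3 (0.53, adjusted p = 0.0118) and CRY2 (0.21, adjusted p = 0.0283) passed. BHLHE40 passed without vehicle 1 h replicate 3, its high array at that time (0.91, adjusted p = 0.0484). From 1 to 2 h none was called by limma's test or had an unadjusted p under 0.05, where 2.72% and 16.2% of all genes did.

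**Figure D4:**
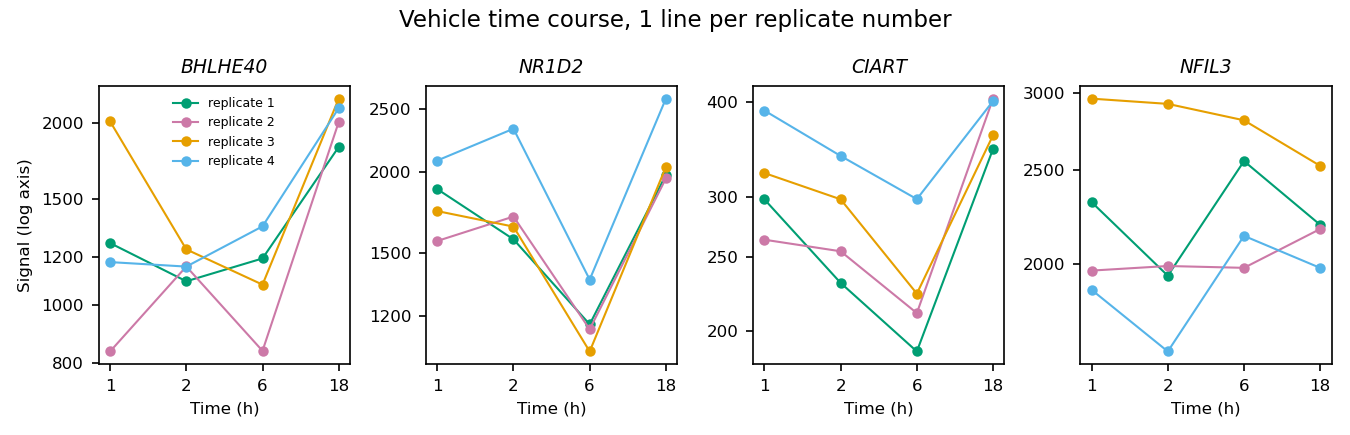
Signal of BHLHE40, NR1D2, CIART and NFIL3 in vehicle cells against time (h, evenly spaced), on log axes of different range, with 1 line for each replicate number. In BHLHE40, NR1D2 and CIART all 4 lines rise from 6 to 18 h, while those of NFIL3 do not move together.

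Over the 4 vehicle times, an F test called BHLHE40 (adjusted p = 0.0441), NR1D2 (adjusted p = 0.00856) and CIART (adjusted p = 0.00650), where 19.4% of all genes were called. The range between the highest and lowest vehicle means of these genes was 0.88, 0.84 and 0.70. With the replicate block PER3 and CRY2 were called too, 5 of 8 in all, in a fit that called 51.8% of all genes. The call of BHLHE40 was lost in 12 of 16 fits that left out 1 array (all but those without replicate 2 or 3 at 1 h, replicate 3 at 2 h or replicate 4 at 6 h), and that of NR1D2 without all 12 arrays of replicate 3 (adjusted p = 0.0583). That of BHLHE40 was lost as well with 75th percentile centring (0.0576), quantile normalization (0.0586), no filter (0.0621) and its other probe set (0.114). The range of NFIL3 over the vehicle times was 0.18 (adjusted p = 0.997).

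At 18 h the 3 groups overlapped in BHLHE40, which read 1829 to 2199 in vehicle, 1836 to 2200.0 with Ind/GSK and 1890.0 to 2376 with GS-5759. Its order over the 12 groups put GS-5759 at 1 h highest (11.93 ± 0.57 log2, SD) and Ind/GSK at 6 h lowest (10.09 ± 0.56). The one gap between neighbours in that order that exceeded their spread lay between vehicle at 18 h (11.002 ± 0.115) and vehicle at 1 h (10.32 ± 0.52). CIART ran from 8.80 ± 0.07 with GS-5759 at 18 h to 7.56 ± 0.06 with Ind/GSK at 6 h. NFIL3 ran from 12.21 ± 0.62 with GS-5759 at 2 h to 11.03 ± 0.35 with vehicle at 2 h, and no gap between neighbours exceeded the spread. The whole range of CRY1 was 0.28 and that of CRY2 0.26 on the log2 scale.

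The genes whose 12 group means most resembled those of a member, by Pearson's r as a description over groups that share vehicle arrays and replicate numbers, were KLF6 (0.928), VEGFA (0.913) and SOX9 (0.909) for BHLHE40. They were NR4A2 (0.983), TENT5A (0.982) and ITPRIP (0.981) for NFIL3. For CIART they were BNIP1 (0.986), ANAPC7 (0.986) and TMEM161B-DT (0.982). Among the members themselves, the closest pair was PER3 and CIART (0.817), followed by NR1D2 and CIART (0.699) and BHLHE40 and NFIL3 (0.669), and the most opposed was NFIL3 and CIART (-0.625).

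Of the positive arm of the clock and its nuclear receptors, 5 of 8 listed genes were tested, and none passed in any comparison. CLOCK, the partner of BMAL1, differed from vehicle by -0.10 to 0.04, and BMAL1 by -0.16 to 0.05. NR1D1, the close relative of NR1D2, had only probe sets shared with THRA and was not tested. Of D-box factors and clock outputs, 8 of 11 were tested. DBP, the D-box activator that NFIL3 opposes, read 368, 357, 401 and 519 with Ind/GSK at 2 h against 493, 451, 751 and 672 in vehicle, a difference of -0.49 ± 0.19 that did not pass (adjusted p = 0.152). WEE1, a kinase that delays mitosis and an E-box target, fell at 2 h by 0.45 with Ind/GSK (adjusted p = 0.00524) and by 0.39 with GS-5759 (adjusted p = 0.0223), where 1.08% of all genes fell with GS-5759. The split of all calls with GS-5759 at 2 h, 234 risen and 128 fallen, became 214 and 274 with 75th percentile centring and 228 and 255 with quantile normalization, and both WEE1 calls stayed. Its arrays read 2194, 2187, 1832 and 2553 with Ind/GSK and 2142, 2479, 1949.8 and 2553 with GS-5759, all below the vehicle arrays of 2808, 3055, 2908 and 3137. At 6 h WEE1 was back at vehicle (0.07 and 0.11), and that change in response from 2 to 6 h passed the test (0.51 ± 0.12, adjusted p = 0.0370), where the response of 0.388% of all genes rose, but it was lost in 15 of 24 fits that left out 1 array. This response call was lost as well with no filter (adjusted p = 0.0637) and in the fit of the compared groups alone (0.0787). It was lost too with the next brightest probe set (0.0793) and without replicate 3 throughout (0.113). With GS-5759 the 2 h call was lost in 4 of 8 fits that left out 1 array (without vehicle replicate 2 or 4 or GS-5759 replicate 1 or 3) and without replicate 3 throughout, and with Ind/GSK it was lost without Ind/GSK replicate 3. Both were lost in fits of the compared groups alone (adjusted p = 0.118 and 0.134).

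Of 15 kinases, ubiquitin ligases and partners of the clock, 13 were tested, and CSNK1E was the 1 that rose. CSNK1E encodes casein kinase 1 epsilon, which phosphorylates PER proteins and marks them for degradation. At 2 h it read 1986, 1782, 2771 and 1510.4 with Ind/GSK and 2285, 1692, 2596 and 1548 with GS-5759, against 844, 863, 1015 and 752 in vehicle. At 6 h it read 2149.8, 1480.2, 2007 and 1387, then 2051, 1626, 2001 and 1503, against 932, 838, 820.0 and 699.8. The treated and vehicle arrays did not overlap at either time. The differences were 1.17 ± 0.16 (2.25-fold, adjusted p = 6.98e-06) and 1.19 ± 0.16 (2.28-fold, adjusted p = 4.81e-06) at 2 h, and 1.06 (adjusted p = 5.97e-05) and 1.11 (adjusted p = 5.02e-05) at 6 h, where 1.28% and 1.26% of all genes rose. At 1 h they were 0.32 (adjusted p = 0.270) and 0.43 (adjusted p = 0.797), and at 18 h 0.04 and 0.03.

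Another probe set of CSNK1E gave 1.21 and 1.21 at 2 h and 1.28 and 1.29 at 6 h, and all 4 calls held in 8 of 8 fits that left out 1 array, while the Ind/GSK call at 6 h was lost in the fit of the compared groups alone (adjusted p = 0.0642). The response of CSNK1E fell from 6 to 18 h by 1.05 on the log2 scale (adjusted p = 0.00612), where the response of 0.295% of all genes fell. In vehicle it fell from 6 to 18 h by 0.55 (adjusted p = 0.0198) and from 1 to 18 h by 0.75 (adjusted p = 0.00350), where 4.36% and 3.21% of all genes fell. The 6 to 18 h call was lost without vehicle 6 h replicate 1 or vehicle 18 h replicate 4. TIPIN, a partner of TIMELESS, fell in vehicle by 0.54 from 6 to 18 h and by 0.63 from 1 to 18 h (adjusted p = 0.0131 and 0.00880), and PRMT5, an arginine methyltransferase, by 0.15 and 0.17 (adjusted p = 0.0469 and 0.0383). The PRMT5 calls were lost in 8 of 8 fits that left out 1 array, and each TIPIN call in 2 of 8 (without vehicle 18 h replicate 4 in both, and without vehicle 18 h replicate 2 or vehicle 1 h replicate 3), and both TIPIN calls in fits of the compared groups alone (adjusted p = 0.0718 and 0.145).

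BTRC, a subunit of a ubiquitin ligase that targets PER proteins, fell by 0.27 with Ind/GSK at 1 h (adjusted p = 0.0274) and by 0.28 in vehicle from 1 to 2 h (adjusted p = 0.0255), where 1.99% and 2.08% of all genes fell. NONO, a nuclear partner of PER proteins, fell by 0.13 with Ind/GSK at 1 h and at 6 h (adjusted p = 0.0407 and 0.0177), where 3.73% of all genes fell at 6 h. Ind/GSK arrays at 1 h had a median over all genes of -0.11 against vehicle, which moved by 0.12 when arrays were centred on their 75th percentile. The split of all calls there went from 57 risen and 236 fallen to 102 and 14, and the BTRC and NONO calls were lost, as with quantile normalization. The vehicle split from 1 to 2 h went from 76 risen and 247 fallen to 282 and 44, and the BTRC call there was lost too (adjusted p = 0.131, and 0.143 with quantile normalization). The NONO call at 6 h was lost with 75th percentile centring (0.278), quantile normalization (0.262), no filter (0.0567), another probe set (0.402) and without replicate 3 throughout (0.118). All 4 of these calls were also lost in fits of the compared groups alone and with another probe set. Leaving out 1 array, each BTRC call was lost in 4 of 8 fits (without vehicle 1 h replicate 1 or 2, Ind/GSK 1 h replicate 2 or 3, or, in vehicle, 2 h replicate 1 or 3). The NONO call at 1 h was lost in 6 of 8 (all but those without vehicle replicate 3 or Ind/GSK replicate 1), and that at 6 h in 3 of 8 (without vehicle replicate 2 or 4 or Ind/GSK replicate 3).

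**Figure D5:**
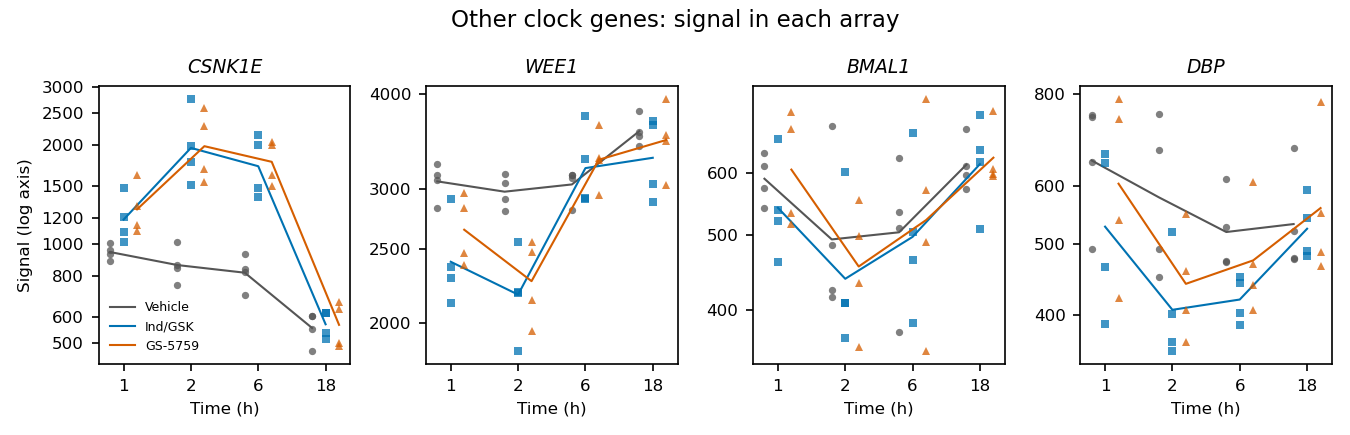
Signal of CSNK1E, WEE1, BMAL1 and DBP in each array against time (h, evenly spaced), on log axes of different range; points are arrays, lines join group means taken on the log2 scale, and colours mark vehicle, Ind/GSK and GS-5759. CSNK1E stands above vehicle at 2 and 6 h and meets it at 18 h, WEE1 lies below vehicle at 2 h, and the groups of BMAL1 and DBP overlap at 2 h.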

How the data were processed

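Total RNA from BEAS-2B cells was measured on 48 arrays (12 groups of 4). The authors deposited an intensity on a linear scale for each probe set. The submitters' processing notes name PLIER and Affymetrix Expression Console, and settings and versions are not given in the sources used here. Of 54675 probe sets, 41097 carried 1 gene symbol in the platform annotation, 1801 carried several and 11777 none, and symbols were updated through RefSeq. Each gene was represented by its brightest probe set annotated with that symbol alone.

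Values were analysed as log2(intensity + 16), so fold changes are on that scale and understate changes of dim genes. The filter left out genes whose mean was below 7.41, a signal of 154, which is the 40th percentile over genes, and it kept 11865 of 19775. One limma 3.58.1 model (R 4.3.3) with a term for each of the 12 groups, 36 residual degrees of freedom and no block was fitted to all 48 arrays. Adjusted p-values are Benjamini-Hochberg values over all 11865 genes within a comparison, and a call needs one under 0.05. Intervals are 95% intervals of the fit. The number of arrays limits the precision.

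The titles number replicates 1 to 4 in every group. In 208 of 208 same-numbered pairs of arrays the deviations from the group means correlated above 0.1 (median 0.776, lowest 0.218), against 109 of 624 pairs with different numbers (median -0.199), so numbers were taken to pair the arrays and a fit with replicate number as a block was made.

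By rule, all members were described, with every array for those called. From lists of other clock genes, up to 4 called genes with the largest change in a comparison were named, plus NR1D1, CLOCK, BMAL1 and DBP whatever their result. For each member called against vehicle, the 3 genes with the highest Pearson's r over the 12 group means were named. Array values of PER2, PER3 and DBP were added after their values were seen. Members and lists were chosen with earlier results of these data known. Alternatives were pseudocount, centring, quantile normalization, filter, probe set, replicate block, the groups fitted, a variance trend and leaving out each array or all of replicate 3, the last and the filter over all probe sets being chosen after seeing the data. The model was tested on simulated data.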

Additional observations from a re-analysis of the deposited data

Results flagged for a closer look

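In 3 of 108 sets of 4 arrays (9 genes in 12 groups), 1 array stood apart from the others by Dixon's criterion, which chance meets in about 1 of 20 sets, and in each it was replicate 4. BHLHE41 read 148 in vehicle replicate 4 at 1 h, in a group with a mean of 120. NR1D2 read 2591 in vehicle replicate 4 at 18 h, in a group with a mean of 2139, and its rise from 6 to 18 h was called without that array. CIART read 243 in Ind/GSK replicate 4 at 2 h, in a group with a mean of 179, and its fall was called without that array.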

How the results depend on the processing

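Of 13 called member values, 13 stayed called with pseudocount 1, with a variance trend and with the replicate block, and no member value reversed in any alternative run. The member calls lost elsewhere are given beside each gene, and the cause was not tested. With the replicate block, 15 of 150 values not called became called. The F test values of PER3 and CRY2, also called with the block, were outside those 150. The counts of called members rose as follows, with the share of all genes called in brackets. With Ind/GSK they rose to 3 at 1 h (22.4%) and 2 at 6 h (22.0%). With GS-5759 they rose to 2 at 1 h (1.69%), 3 at 2 h (11.1%) and 1 at 6 h (12.9%). In the response they rose to 2 from 2 to 6 h (6.66%) and 1 from 6 to 18 h (7.45%). In vehicle they rose to 1 from 2 to 6 h (6.78%) and 4 from 6 to 18 h (34.3%). They rose there to 3 from 1 to 18 h (23.3%) and 5 in the F test (51.8%). No other member call changed. In fits of the compared groups alone the counts were 0 at 1 h in both treatments and 1 at 2 h in both. Without a filter, 1 member was called with GS-5759 at 2 h. With the next brightest probe set, 1 was called with Ind/GSK at 2 h and 1 in vehicle from 1 to 18 h. Without the 12 arrays of replicate 3, 1 was called in the response from 2 to 6 h and 1 in vehicle from 1 to 18 h. Leaving out 1 array, the counts ran from 1 to 2 (Ind/GSK at 1 h), 0 to 3 (Ind/GSK at 2 h), 0 to 2 (GS-5759 at 2 h) and 0 to 1 (vehicle, 1 to 18 h), and 94 of 128 refits of called values stayed called. For the fits other than the block, shares of all genes were not set beside the counts, so the counts are not read as results about the members. BHLHE41 lay below the filter, so it has no call.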

Other observations

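Probe sets annotated with both MIR6883 and PER1, a microRNA and the clock repressor whose gene it lies in, were higher in treated cells at 2 h. On the brightest of these the vehicle arrays at 2 h read 1585, 1724, 1718 and 1857. The Ind/GSK arrays read 2519.8, 2361, 2719 and 2358, and the GS-5759 arrays 2758, 2413, 3009 and 2582. All treated arrays lay above all vehicle arrays, with log2 differences of 0.53 and 0.64 at 2 h and 0.22 and 0.36 at 1 h. The next brightest, also MIR6883 and PER1, gave 0.67 and 0.78 at 2 h and 0.29 and 0.46 at 1 h. These probe sets entered no test, and which transcript they measured was not tested.

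The brightest probe set annotated with both NR1D1 and THRA, a clock repressor and a thyroid hormone receptor from overlapping genes, read 489, 410.4, 299 and 300.4 in vehicle cells at 6 h. At 18 h it read 1131, 593, 543 and 566, a log2 difference of 0.85 with all 18 h arrays above all 6 h arrays. Replicate 1 was the highest array at 18 h with Ind/GSK (1219) and with GS-5759 (1171) too. The next brightest, also NR1D1 and THRA, was dimmer than the filter level. Its vehicle means were 5.71 at 6 h and 6.00 at 18 h on the log2 scale, with overlapping arrays (25.7 to 46.6 and 38.3 to 70.0). No test was made on either probe set.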
